A study of Mus musculus with 12 samples.

Results

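The 8 genes *Ptch1*, *Gli1*, *Hhip*, *Pdgfra*, *Pdgfa*, *Pdgfb*, *Nr2f2* and *Tcf21*, of hedgehog and Pdgf signalling and of the fetal gonad interstitium, were followed across 4 kinds of mouse gonad. The genes were taken by name, as the probes that carry one of these names on the arrays. They were 8 of 29182 genes on the arrays, were measured by 15 probes, and all 8 were among the 18844 genes left after dim probes were removed.

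Whole gonads were taken at E14.5, and the RNA of one pair of gonads was hybridized to each of 12 one-colour arrays, 3 for each of 4 groups. The study asked how far germ cell loss of *Smad4*, with or without loss of *Stra8*, moves an ovary away from the female pattern. Pregnant females received tamoxifen at E9.5 and E10.5, the background was mixed, and every animal carried at least 1 floxed *Smad4* allele and at least 1 null *Stra8* allele. Control testes were Smad4Flox/+ StellaMerCreMer Stra8+/- on all 3 arrays. The 3 control ovaries differed in genotype: control ovary 1 was Smad4Flox/+ StellaMerCreMer Stra8+/-, control ovary 2 was Smad4Flox/+ Stra8+/- and control ovary 3 was Smad4Flox/Flox Stra8+/-, the last pair without the Cre. *Smad4 (Stella)* ovaries were Smad4flox/floxMerCreMer with a Stra8+/- genotype, and *Smad4/Stra8* double-mutant (DKO) ovaries carried the same alleles with Stra8-/-. The Cre is driven by an element of *Stella*, a germ cell gene, and the study describes its activity as variable, so *Smad4* may remain in part of the germ cells. Somatic cells were not targeted. The *Stra8* null allele is present in every cell.

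In the fetal testis, Sertoli cells secrete Desert hedgehog, which is bound by the receptor Ptch1 on neighbouring interstitial cells. Binding frees the membrane protein Smo, and Gli transcription factors then switch on targets that include *Gli1*, *Ptch1* and *Hhip* themselves, so that the RNA of these 3 genes is widely read as a gauge of the response. Pdgf-A from epithelial cells acts on the receptor Pdgfra on interstitial cells, and both pathways are known for the part they play in fetal Leydig cells and the interstitium, while the transcription factors Nr2f2 and Tcf21 mark interstitial cells of both sexes.

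Levels below are log2 signals minus the 75th percentile of the array, called relative log2 levels. A level can be compared between arrays for 1 gene, not between genes, because probes differ in brightness. A gene was called when its adjusted p (limma, Benjamini-Hochberg over all 18844 genes) was under 0.05 and its change at least 1.5-fold. In these whole gonads, fewer cells of a type and less RNA per cell cannot be told apart.

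Promoter sequence of the pair of hedgehog targets with a RefSeq window is shown because *Ptch1* and *Hhip* were both called higher in control testes, and *Ptch1* alone of this pair was called in DKO ovaries. RefSeq promoter windows (GRCm38.p6, from 250 bases before to 50 after each start site) were found for 6 of the 8 genes, with no entry for *Gli1* and *Pdgfb*. The 250 bases before the start are printed 5′ to 3′ on the strand of the gene, for *Ptch1* at chr13:63565736-63565985 and for *Hhip* at chr8:80058009-80058258, both on the minus strand. Capitals mark the letters CCACCC, which lie within the Gli motif GACCACCCA.
*Ptch1*: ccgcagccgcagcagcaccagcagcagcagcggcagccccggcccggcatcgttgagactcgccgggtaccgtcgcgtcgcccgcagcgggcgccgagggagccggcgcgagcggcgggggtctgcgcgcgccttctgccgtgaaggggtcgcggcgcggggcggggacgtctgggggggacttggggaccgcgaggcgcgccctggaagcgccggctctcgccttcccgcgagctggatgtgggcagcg
*Hhip*: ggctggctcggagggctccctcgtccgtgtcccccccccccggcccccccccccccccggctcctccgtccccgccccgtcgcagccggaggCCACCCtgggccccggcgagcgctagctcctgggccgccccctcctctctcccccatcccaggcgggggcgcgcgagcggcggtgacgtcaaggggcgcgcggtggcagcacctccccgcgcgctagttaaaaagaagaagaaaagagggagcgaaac
GACCACCCA was searched on both strands and was found in none of the members' windows, also with 1 mismatch allowed. Of all 32851 windows of this length, 0.253% held it without a mismatch and 6.74% with at most 1. The shorter CCACCC stood in the windows of *Hhip*, *Pdgfra* and *Pdgfa* and in 31.5% of all windows. These windows are short, and a match or its absence says nothing of binding.

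The response genes of the hedgehog pathway were far higher in control testes than in control ovaries. *Hhip*, which encodes a membrane protein that binds hedgehog ligands and dampens the signal, was at -0.59, -0.71 and -0.65 in the 3 control testes. It was at -5.39, -4.58 and -4.81 in the 3 control ovaries. Every testis lay far above every ovary, and the difference of 4.28 on the log2 scale (SE 0.35, 19.4-fold) passed the test with an adjusted p of 5.15e-06 (limma). *Gli1*, the Gli factor whose own gene is a direct target, was at -2.66, -2.51 and -2.23 in control testes. In control ovaries it was at -6.65, -5.34 and -6.19, again without overlap. The *Gli1* difference was 3.60 (SE 0.30, adjusted p = 5.66e-06, limma), with *Gli1* well above background on 1 of 3 control ovaries. *Ptch1*, the receptor that holds Smo silent, was at -3.06, -3.37 and -3.30 in control testes. In control ovaries it was at -6.07, -5.33 and -5.26, and its difference of 2.31 (SE 0.27, adjusted p = 5.89e-05, limma) was called as well.

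Several ovary signals of these 3 genes did not pass the scanner's mark for being well above background. For *Ptch1*, the probe A_51_P127435 (mm9 chr13:63612907-63612966, minus strand) was well above background on 3 control testis arrays, 0 control ovary arrays, 0 *Smad4 (Stella)* arrays and 1 DKO array. This probe passed the filter on dim probes through the testes alone. The ovary side was raised to the lowest signal of any probe well above background on the same array, and testes were then 2.95-fold higher by that probe. A probe can miss the mark above that lowest signal, so this value is a guide and not a lower bound. The other *Ptch1* probe, A_52_P598605 (mm9 chr13:63610298-63610357, minus strand), passed this mark on 3, 2, 1 and 3 arrays of the same groups. The single *Gli1* probe (mm9 chr10:126767991-126768050, minus strand) did so on 3, 1, 2 and 1 arrays, and it passed the filter on dim probes through the testes alone. Of the *Hhip* probes, A_52_P249826 (mm9 chr8:82496214-82496273, minus strand) was well above background on 3, 3, 3 and 2 arrays, with a testis excess of 4.35 (SE 0.42). The other, A_51_P416822, was so on 3, 1, 2 and 1 arrays and passed the filter on dim probes through the testes alone. Its excess of 4.21 (SE 0.52) thus rests on control ovary signal mostly near background. A normexp background correction, which pulls dim values together, lowered the testis excess of *Ptch1* to 0.85 (adjusted p = 0.363, limma) and that of *Gli1* to 1.29 (adjusted p = 0.149, limma), so that neither was called.

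**Figure D1:**
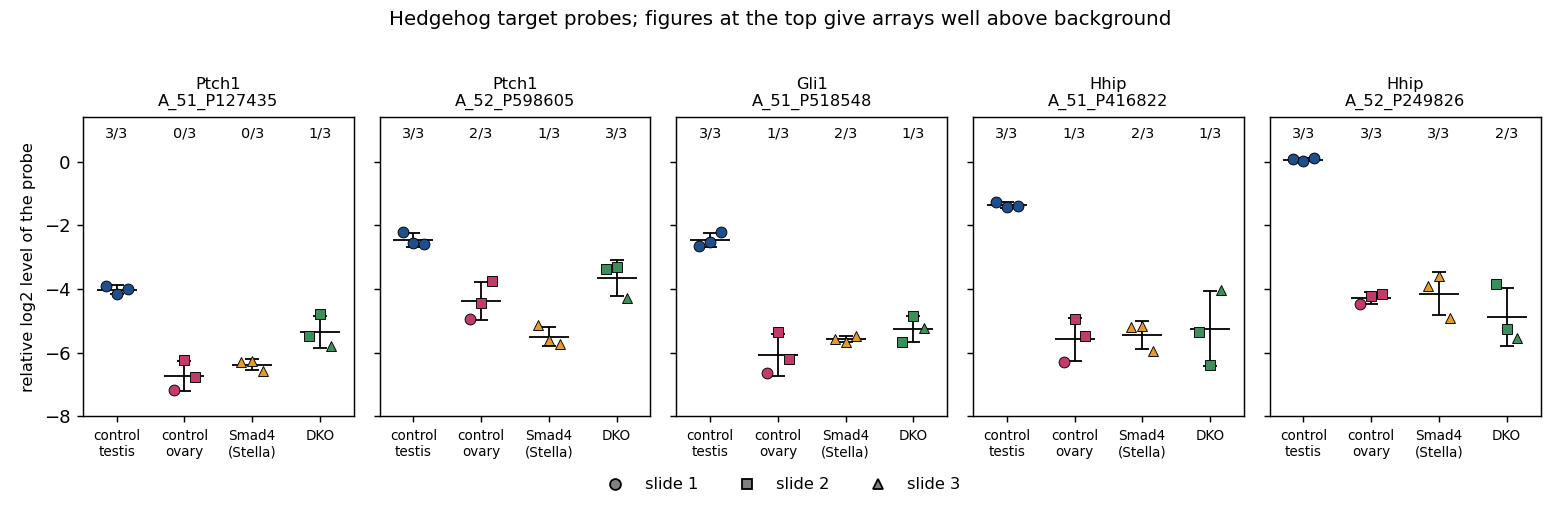
Relative log2 level (y axis) of each probe of *Ptch1*, *Gli1* and *Hhip* on each array, by group (x axis), with the mean and SD of each group (n = 3). Marker shapes give the slide, and the fractions at the top count the arrays of a group on which the probe was well above background; both *Ptch1* probes put all 3 DKO arrays above all *Smad4 (Stella)* arrays, and both *Hhip* probes keep all ovary groups far below the testes.

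Of the Pdgf genes, *Pdgfa* and *Pdgfra* were called higher in control testes. *Pdgfa*, the ligand, was at 3.06, 3.09 and 3.25 in control testes. Its values of 1.90, 1.67 and 1.75 in control ovaries were lower on every array. The *Pdgfa* difference of 1.36 (SE 0.10, 2.57-fold, adjusted p = 2.56e-06, limma) had the smallest error of the 8, and its 2 probes gave 1.19 and 1.53. *Pdgfra*, the receptor for Pdgf-A, was at -0.10, -0.30 and -0.39 in control testes. It was at -1.56, -1.08 and -1.09 in control ovaries, all lower. The *Pdgfra* difference was 0.98 (SE 0.18, 1.97-fold, adjusted p = 0.00127, limma), with 0.93 and 1.03 from its 2 probes, and it was 0.69 (adjusted p = 0.0749, limma) after normexp correction. *Pdgfb*, a ligand made mainly by endothelial cells, was at -4.29, -3.83 and -3.73 in control testes. In control ovaries it was at -5.16, -3.93 and -3.93, so that the groups overlapped. The *Pdgfb* difference of 0.39 (SE 0.31, 95% interval -0.29 to 1.08, adjusted p = 0.326, limma) was not called.

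Both transcription factors of interstitial cells were higher in control testes. *Tcf21*, a basic helix-loop-helix factor, was at 3.25, 3.34 and 3.10 in control testes. In control ovaries it was at 2.14, 2.08 and 1.92, below every testis. The *Tcf21* difference was 1.18 (SE 0.17, 2.27-fold, adjusted p = 0.000266, limma). *Nr2f2*, an orphan nuclear receptor also called COUP-TFII, was at 2.26, 2.18 and 1.99 in control testes. In control ovaries it was at 0.64, 1.28 and 1.44, with control ovary 1 standing well below the other two. The *Nr2f2* difference was 1.03 (SE 0.18, 2.04-fold, adjusted p = 0.00101, limma), and its 3 probes gave 0.96 to 1.11.

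In all, 7 of the 8 genes were called higher in control testes and none lower, where 34.0% of all genes tested were called in either direction and 17.2% were called higher. Their median difference was 1.27, beside 0.02 over all genes. The arrays of the 2 groups did not overlap for 7 of the 8 genes and for 58.4% of all genes. These counts include the *Gli1* probe and the probes A_51_P127435 of *Ptch1* and A_51_P416822 of *Hhip*. All of these passed the filter on dim probes through the testes alone, which favours a testis excess. After normexp correction 4 genes were called. All control testes were hybridized on slide 1, with control ovary 1 as the only ovary there. Within that slide the testis excess was 4.74 for *Hhip*, 4.18 for *Gli1*, 2.83 for *Ptch1*, 1.505 for *Nr2f2*, 1.30 for *Pdgfra*, 1.23 for *Pdgfa* and 1.09 for *Tcf21*, all called with the slide as a block. With that block all of these values rest on control ovary 1 alone, the array with the fewest probes well above background. *Pdgfb* was called as well with that block, at 1.21 (adjusted p = 0.00852, limma), and without control ovary 1 its difference was -0.02.

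**Figure D2:**
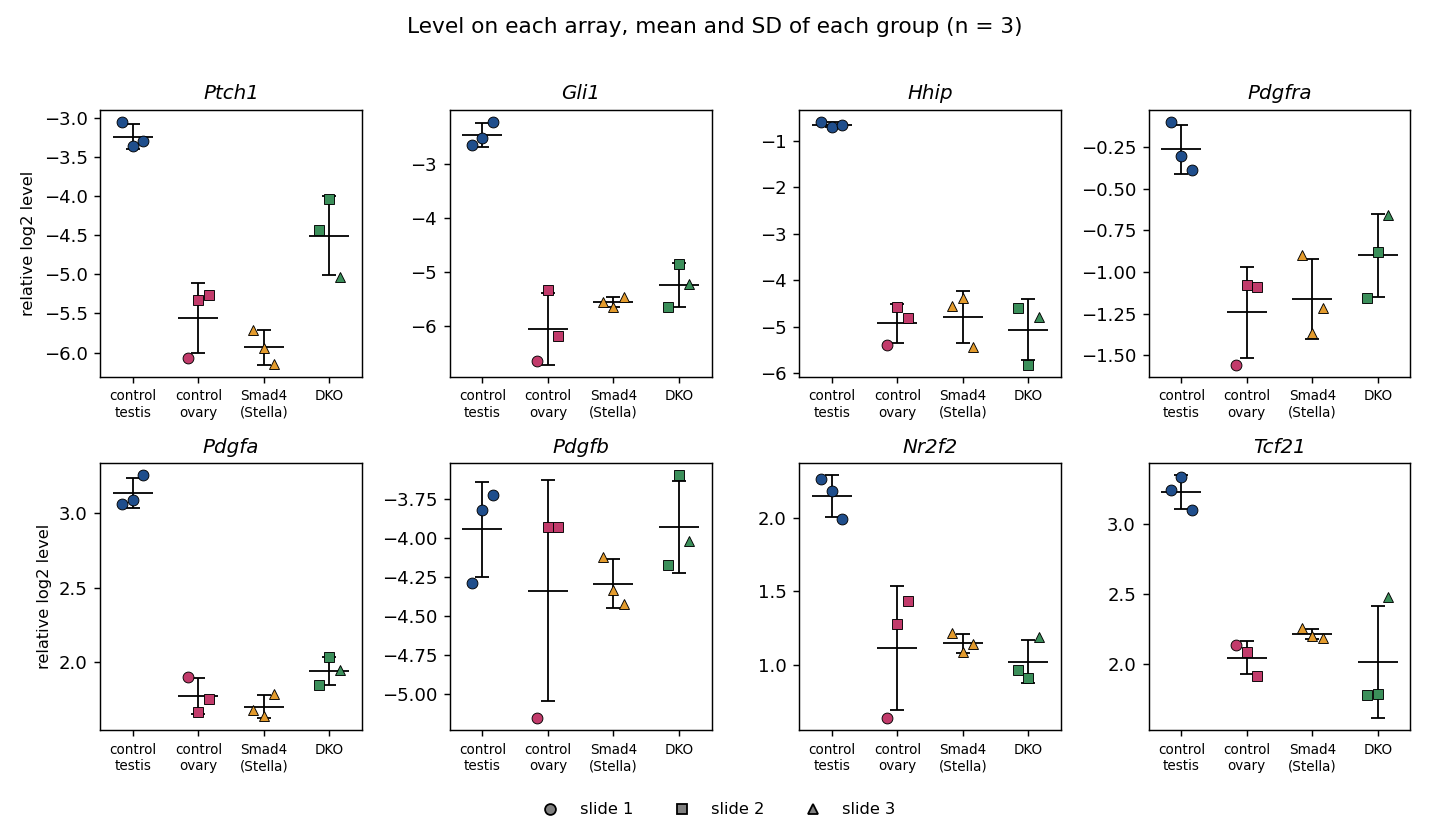
Relative log2 level (y axis, a range of its own for each gene) of the 8 genes on each of the 12 arrays, by group (x axis), with the mean and SD of each group (n = 3) and the slide as marker shape. Control testes lie above all ovary groups for 7 genes, *Pdgfb* overlaps throughout, and DKO ovaries stand above the other ovaries for *Ptch1*. Between control testes and control ovaries, 58.4% of all genes had no overlap of arrays.

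None of the 8 genes passed the test after germ cell deletion of *Smad4* alone. Between *Smad4 (Stella)* and control ovaries 0 members were called by limma, 0 had an unadjusted p under 0.05 by limma or by the methods' t-test, and 0.271% of all genes were called. The differences ran from -0.38 (SE 0.27, 95% interval -0.98 to 0.22) for *Ptch1* to 0.50 (SE 0.30, 95% interval -0.17 to 1.16) for *Gli1*. *Gli1* was at -5.56, -5.65 and -5.48 in *Smad4 (Stella)* ovaries, within the range of the control ovaries. *Hhip* was at -4.56, -4.38 and -5.43, and likewise overlapped the controls. The 95% intervals, which do not take the slide into account, ran from -0.30 to 0.15 for *Pdgfa*, -0.32 to 0.48 for *Pdgfra*, -0.38 to 0.44 for *Nr2f2* and -0.21 to 0.55 for *Tcf21*. With the slide as a block the differences were -0.01 for *Pdgfa*, -0.44 for *Pdgfra*, -0.45 for *Nr2f2* and -0.48 for *Tcf21*, the last 3 outside those intervals and not called. No slide held both groups, so these block values pass through the DKO group and rest on DKO ovary 3, its only array on slide 3. *Tcf21* was at 2.26, 2.20 and 2.19, each slightly above the highest control ovary, and the difference between the group means was 0.17 (SE 0.17, adjusted p = 0.613, limma). It was the 1 member without overlap in this comparison, where 28.1% of all genes had none.

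The 2 probes of *Ptch1* disagreed in that comparison. *Ptch1* as the mean of both was at -5.71, -5.94 and -6.15 in *Smad4 (Stella)* ovaries, overlapping the control ovaries. By A_52_P598605 alone these ovaries were 1.11 lower on the log2 scale than control ovaries (-1.11, SE 0.33, adjusted p = 0.133, limma over probes), and by A_51_P127435 the difference was 0.36 (SE 0.27, adjusted p = 0.494, limma over probes). The first probe was well above background on 1 of 3 *Smad4 (Stella)* arrays and the second on none. All *Smad4 (Stella)* arrays were on slide 3, which held no control ovary, so no difference within a slide could be formed here.

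In DKO ovaries *Ptch1* was the 1 member that was called. It was at -4.43, -4.05 and -5.04 on the 3 DKO arrays, above all control ovaries (-6.07 to -5.26) and below all control testes (-3.37 to -3.06). The rise over control ovaries was 1.05 (SE 0.27, adjusted p = 0.0183, limma), against 2.31 for testes over the same ovaries. *Ptch1* also rose over *Smad4 (Stella)* ovaries, by 1.43 (SE 0.27, adjusted p = 0.00793, limma), with no overlap. Most of the *Smad4 (Stella)* signal of *Ptch1* was not well above background (0 and 1 of 3 arrays by probe), so the size of that difference is uncertain. Of the 8 genes, 1 was called in DKO against control ovaries, where 14.7% of all genes were called and 6.69% were called higher. In DKO against *Smad4 (Stella)* ovaries 1 was called, where 8.46% of all genes were called and 4.39% were called higher. A single call among 8 genes is near those shares. Arrays did not overlap for 1 of the 8 genes and 32.8% of all genes in the first comparison. In the second this held for 2 of the 8 genes and 31.2% of all genes. The exact permutation p for *Ptch1* was 0.1 in both comparisons, the smallest that 3 arrays against 3 allow.

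The *Ptch1* call against control ovaries was not firm. By A_51_P127435, which was well above background on none of the control ovaries and on 1 of 3 DKO arrays, the difference was 1.38 (SE 0.27, adjusted p = 0.00487, limma over probes), so its size rests mostly on signal near background. The probe A_52_P598605, well above background on 2 control ovaries and 3 DKO arrays, gave 0.72 (SE 0.33, adjusted p = 0.155, limma over probes). The call was lost without control ovary 1 (0.79, adjusted p = 0.0529, limma) and without DKO ovary 2 (0.82, adjusted p = 0.0677, limma), and it was not made by the methods' t-test. Within slide 2, which held control ovaries 2 and 3 and DKO ovaries 1 and 2, the difference was 1.06, and with the slide as a block it was called (adjusted p = 0.00556, limma). Against *Smad4 (Stella)* ovaries both probes were called (1.02, adjusted p = 0.0381, and 1.83, adjusted p = 0.00647, limma over probes). Within slide 3, with DKO ovary 3 alone beside the *Smad4 (Stella)* ovaries, the difference was 0.89, and it was not called with the slide as a block (adjusted p = 0.0534, limma).

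The other hedgehog targets did not follow *Ptch1* past the test. *Gli1* was at -5.66, -4.86 and -5.22 in DKO ovaries, overlapping the control ovaries (-6.65 to -5.34). Its difference of 0.81 (SE 0.30, 95% interval 0.15 to 1.48, adjusted p = 0.079, limma) was not called, and 1 of 3 arrays in each group was well above background. It was called without control ovary 2 (1.17, adjusted p = 0.00843, limma), without DKO ovary 1 (1.02, adjusted p = 0.0455, limma) and after quantile normalization (0.99, adjusted p = 0.0259, limma). Control ovary 2 was the 1 control ovary on which *Gli1* was well above background, so the value without it compares mostly dim signal. *Hhip* was at -4.61, -5.82 and -4.78 in DKO ovaries, and DKO ovary 2, the array with the highest *Ptch1* and *Gli1* of the group, had the lowest *Hhip*. The *Hhip* difference from control ovaries was -0.14 (SE 0.35, 95% interval -0.92 to 0.64, adjusted p = 0.82, limma), with 0.32 and -0.60 from its 2 probes. The 0.32 came from A_51_P416822, which was well above background on 1 of 3 arrays in each of these groups. Whether the change of *Ptch1* differed from that of *Hhip* was not tested.

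The Pdgf genes and the interstitial factors did not pass the test in DKO ovaries. *Pdgfa* was at 1.85, 2.03 and 1.95, which overlapped the control ovaries and lay above every *Smad4 (Stella)* ovary (1.68, 1.64 and 1.79). The *Pdgfa* difference was 0.17 (SE 0.10, adjusted p = 0.277, limma) from control ovaries and 0.24 (SE 0.10, adjusted p = 0.159, limma) from *Smad4 (Stella)* ovaries. *Pdgfra* was at -1.16, -0.88 and -0.66, a difference of 0.34 (SE 0.18, adjusted p = 0.215, limma) from control ovaries. Its probes differed there, with 0.06 (SE 0.15) from the bright A_51_P345649 (mm9 chr5:75593888-75593947, plus strand) and 0.62 (SE 0.27) from the dim A_52_P264283 (mm9 chr5:75559613-75559672, plus strand). *Tcf21* was at 1.78, 1.79 and 2.48, with DKO ovary 3 above every other ovary and the other two below every other ovary. *Nr2f2* was at 0.97, 0.91 and 1.19, inside the control ovary range. *Pdgfb* was at -4.17, -3.60 and -4.02, and its interval against control ovaries ran from -0.28 to 1.09.

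DKO ovaries stayed below control testes for the same 7 genes that separated the control sexes. Called lower were *Hhip* (-4.42, SE 0.35), *Gli1* (-2.78, SE 0.30), *Ptch1* (-1.26, SE 0.27), *Tcf21* (-1.21, SE 0.17), *Pdgfa* (-1.19, SE 0.10), *Nr2f2* (-1.12, SE 0.18) and *Pdgfra* (-0.64, SE 0.18), with adjusted p from 7.38e-06 to 0.0188 (limma). That is 7 of 8 members, where 25.7% of all genes were called and 13.0% were called lower. The limit from the filter on dim probes, given above for probes of *Gli1*, *Ptch1* and *Hhip*, holds here too. The arrays did not overlap for 7 of the 8 members and for 50.5% of all genes. This comparison shares the control testes with that of the control sexes, and the DKO arrays with that of DKO and control ovaries. The *Pdgfra* call was lost without control testis 1 (-0.56, adjusted p = 0.067, limma) and without DKO ovary 1 (-0.51, adjusted p = 0.0658, limma). No slide held both groups.

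**Figure D3:**
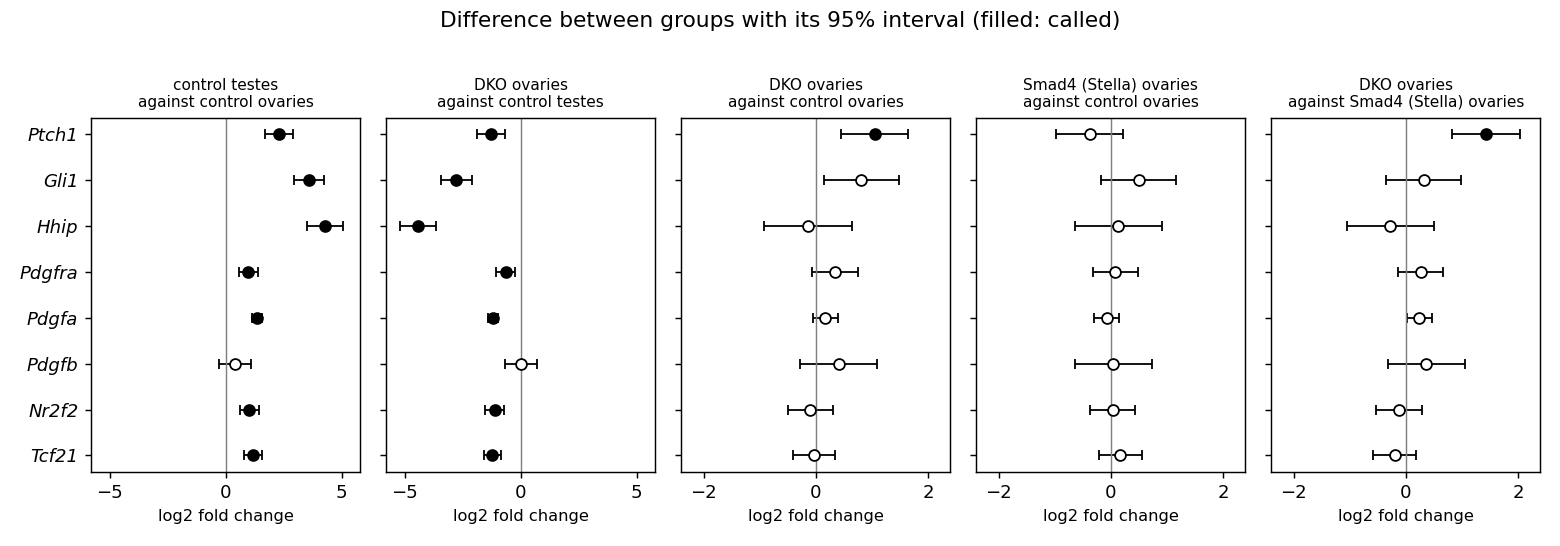
Difference between groups (x axis, log2 fold change, with its 95% interval from limma) for each of the 8 genes (rows) in 5 comparisons; filled points were called. The 2 panels with control testes have a wider axis, and *Ptch1* is the only filled point among the 3 panels that compare ovary groups.

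The rest of the hedgehog pathway was read from a list of 24 genes, of which 20 were tested. Of the ligands, *Dhh* was at 4.70, 4.66 and 4.47 in control testes. It was at -2.10, -1.97 and -1.96 in control ovaries. In the *Smad4 (Stella)* group *Dhh* was at -1.33, -1.88 and -1.97, and in DKO ovaries at -1.83, -2.15 and -1.76. All ovary arrays lay far below every testis. The testis excess of *Dhh* over control ovaries was 6.62 (SE 0.17, adjusted p = 4.14e-09, limma), while DKO ovaries differed from control ovaries by 0.10 (SE 0.17, adjusted p = 0.735, limma). Against control testes the DKO ovaries were lower in *Dhh* by a log2 change of -6.52. Neither *Ihh* nor *Shh* had a probe well above background on all arrays of any group.

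Of the 20 genes, 6 were called higher in control testes than in control ovaries and 1 lower, with a list median of 0.20 beside 0.02 over all genes. These 7 calls in 20 are a share close to the 34.0% of all genes called in this comparison. Besides *Dhh* the genes called were *Scube1* (1.43), which helps release ligand, the proteoglycan gene *Gpc3* (1.17), whose product binds hedgehog ligands, the Gli factor *Gli2* (0.96), the ciliary kinesin *Kif7* (0.84) and the kinase *Stk36* (0.69), with *Scube2* lower (-1.21). The transducer *Smo* (0.37, adjusted p = 0.061, limma), the coreceptors *Gas1* (-0.54), *Boc* (-0.41) and *Cdon* (-0.23), the repressor-forming factor *Gli3* (-0.19) and the inhibitor *Sufu* (-0.21) were not called. None of the 20 was called in *Smad4 (Stella)* against control ovaries, where 0.271% of all genes were called. In DKO ovaries *Kif7* (1.02, SE 0.18, adjusted p = 0.0024, limma) was called higher than in control ovaries. This 1 call in 20 is a share below the 14.7% of all genes called in that comparison. None was called in DKO against *Smad4 (Stella)* ovaries, where 8.46% of all genes were called.

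*Kif7*, which works on Gli proteins in the cilium, was at -0.60, -0.30 and -0.66 in DKO ovaries and at -1.98, -1.28 and -1.36 in control ovaries. *Smad4 (Stella)* ovaries had *Kif7* at -0.59, -0.77 and -0.68, at the level of the DKO ovaries, and their excess of 0.86 (SE 0.18) over control ovaries narrowly missed the adjusted threshold (0.0758, limma). No slide held both *Smad4 (Stella)* and control ovaries, so slide and genotype cannot be told apart for this excess. The lowest *Kif7* value, -1.98, was that of control ovary 1, the array with the fewest probes well above background.

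The Pdgf pathway list held 10 further genes, all tested. *Lrp1*, an endocytic receptor that binds Pdgfrb (1.16), and *Pdgfrb*, the receptor for Pdgf-B (0.95, SE 0.19, adjusted p = 0.00214, limma), were called higher in control testes, and *Plat*, a protease that activates Pdgf-C, lower (-0.97). These 3 calls in 10 are near the 34.0% of all genes. The ligands *Pdgfc* (-0.31, SE 0.15) and *Pdgfd* (-0.42, SE 0.28) were not called. None of the 10 was called in any comparison between ovary groups. Of all genes, 0.271% were called in *Smad4 (Stella)* against control ovaries and 14.7% in DKO against control ovaries. In DKO against *Smad4 (Stella)* ovaries 8.46% were called, so that no call in 10 genes is near these shares. In DKO ovaries *Pdgfrb* differed from control ovaries by -0.09 (SE 0.19), *Pdgfc* by -0.11 (SE 0.15) and *Pdgfd* by -0.64 (SE 0.28, adjusted p = 0.133, limma).

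**Figure D4:**
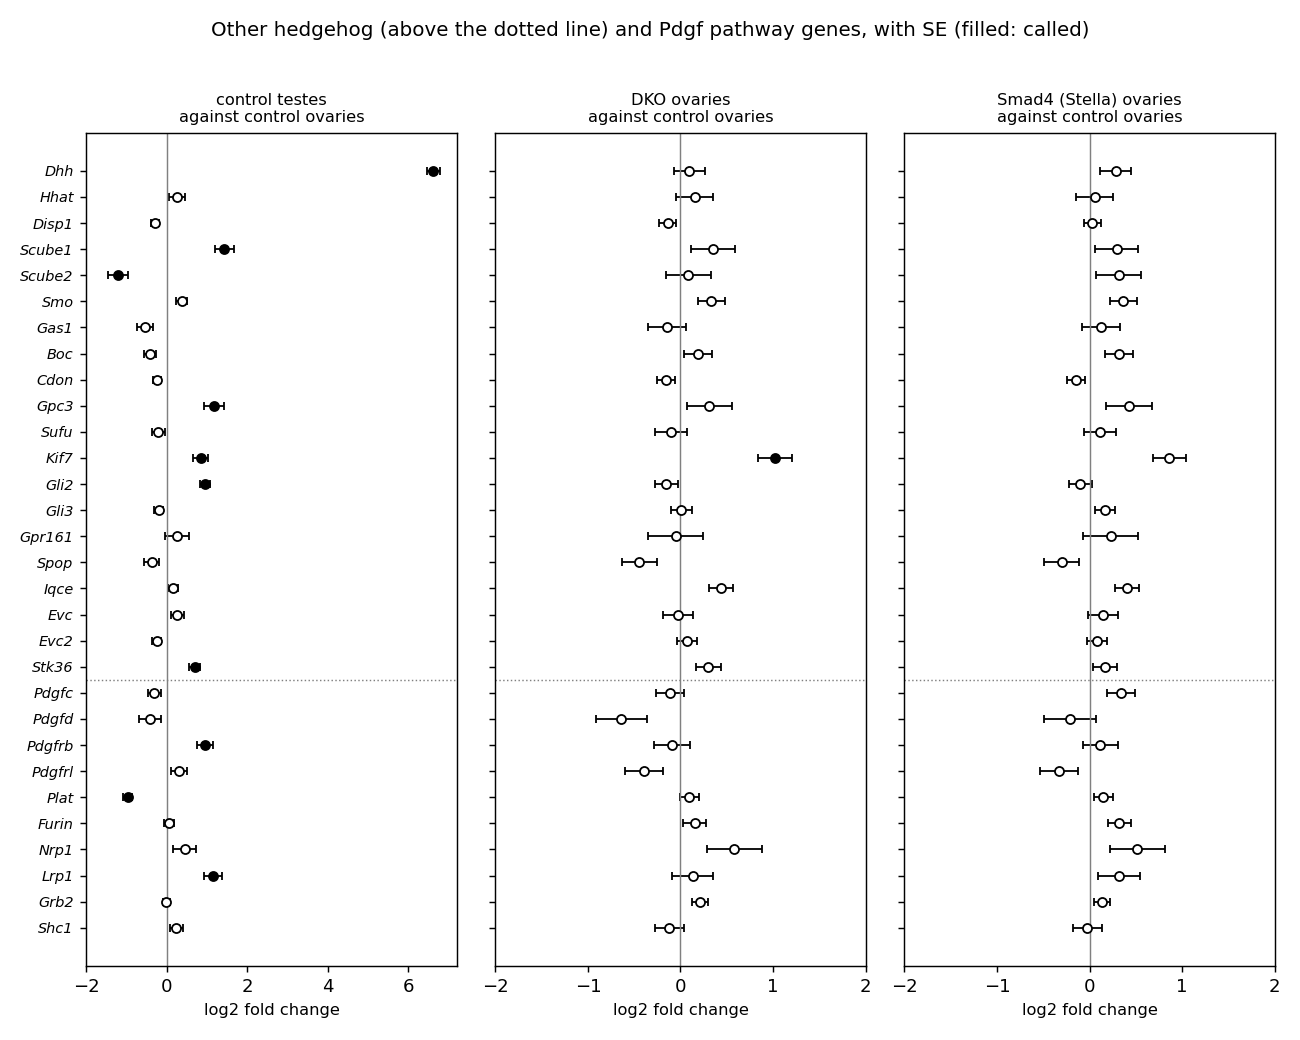
Difference between groups (x axis, log2 fold change with its SE) for the 20 other hedgehog and 10 other Pdgf pathway genes (rows) in 3 comparisons; filled points were called, and the first panel has a wider axis. *Dhh* stands out at 6.62 in control testes, and *Kif7* is the filled point in DKO against control ovaries, where 14.7% of all genes were called.

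Lists of cell type markers were read beside these results, and their part in them was not tested. For scale, 34.0% of all genes were called between the control sexes and 0.271% in *Smad4 (Stella)* against control ovaries. In DKO ovaries 14.7% were called against control ovaries and 8.46% against *Smad4 (Stella)* ovaries. Interstitial progenitor genes were called higher in control testes for 11 of 21 genes, led by *Cxcl12* (3.10), *Ogn* (1.93), *Vcam1* (1.52) and *Jag1* (1.37), and for none in the comparisons between ovary groups. The list mean lay between -0.16 and 0.11 in control testes and between -1.07 and -0.32 in control ovaries. The *Smad4 (Stella)* group ran from -0.80 to -0.40 and the DKO group from -0.97 to -0.67. Fetal Leydig cell genes were called higher in control testes for 11 of 14 genes and lower for 1, with *Cyp17a1* (6.29) and *Ren1* (6.27) among them. *Cyp11a1* and *Hsd17b3*, also called from this list, were well above background on no control ovary. With their ovary side raised as for *Ptch1* above, testes were 158-fold and 84.4-fold higher, which again are not lower bounds. Whole gonads do not show which cells made this RNA, so the place of *Hsd17b3* in the list does not assign it to Leydig cells. Sertoli cell genes were called higher for 12 of 14 and lower for 1, with *Etd* (8.97), *Cst9* (7.30), *Hsd17b1* (6.62) and *Amh* (6.59) among them, of which *Etd* and *Amh* were well above background on 1 of 3 control ovaries. Neither list had a call in DKO against control ovaries. Against *Smad4 (Stella)* ovaries, DKO ovaries were called lower in the Leydig gene *Star* (-0.62, adjusted p = 0.0244, limma) and higher in *Amh* (0.91, adjusted p = 0.0127, limma), which was well above background on 1 DKO array and on no *Smad4 (Stella)* array. Pregranulosa genes were called lower in control testes for 14 of 14, led by *Fst* (-6.44), *Irx3* (-3.71), *Irx5* (-3.35) and *Runx1* (-2.97), and none was called in DKO against control ovaries, while *Axin2* was called higher against *Smad4 (Stella)* ovaries (0.73, adjusted p = 0.0127, limma).

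Among the other lists, pericyte and smooth muscle genes were called higher in control testes for 5 of 10 genes (*Cnn1*, 1.54; *Tagln*, 1.44; *Acta2*, 1.29; *Cspg4*, 1.25). Endothelial genes had 1 call in 12, lower in testes (*Kdr*, -0.87), and none in DKO ovaries. *Kdr* went against its list, whose median was 0.34 in control testes against control ovaries, beside 0.02 over all genes. Mesonephric genes had 1 call higher (*Lhx1*, 1.31) and 3 lower of 9 in testes (*Calb1*, -7.58; *Gata3*, -2.99; *Emx2*, -1.74), and 1 higher in DKO ovaries (*Lhx1*, 1.54). The mesonephric genes *Cdh16* (-2.90, SE 1.19), *Pax8* (-0.45), *Wnt7b* (-0.33), *Cdh6* (-0.30) and *Pax2* (0.27) were not called in control testes against control ovaries. Macrophage genes had no call in testes and 1 of 8 in DKO against control ovaries (*Cd68*, 0.72), which was called against *Smad4 (Stella)* ovaries as well (0.86, adjusted p = 0.0163, limma). A single call in a list of this size is near the 14.7% of all genes called in DKO against control ovaries. The mean of the macrophage list lay between -1.45 and -1.13 on the DKO arrays, above all other ovary arrays (-2.36 to -1.51), as did *Ptch1*. So did the mean of the germ cell list, at 1.905 to 2.268 on the DKO arrays and 0.60 to 1.21 on the other ovary arrays. In control testes the macrophage list mean was -1.88 to -1.79 and the germ cell list mean 1.54 to 1.87. For single genes, 32.8% of all had no overlap of arrays in DKO against control ovaries and 31.2% in DKO against *Smad4 (Stella)* ovaries. The largest macrophage difference from control ovaries, that of *Cx3cr1*, was not called in DKO (1.97, SE 1.02) or *Smad4 (Stella)* ovaries (2.22, SE 1.02). *Mrc1* alone of that list was lower in DKO than in control ovaries (-0.15). Germ cell genes had 4 of 8 called higher and 2 lower in testes, led by *Nanos3* (4.37, well above background on 1 of 3 control ovaries), *Pou5f1* (2.61), *Dppa3* (2.34) and *Rbm46* (-1.93), and 4 of 8 higher in DKO ovaries (*Nanos3*, 3.82; *Dppa3*, 2.33; *Pou5f1*, 2.32; *Tdrd1*, 1.38). The rest of the germ cell list was not called in DKO against control ovaries (*Ddx4* 0.14, *Mael* 0.03, *Dazl* -0.08, *Rbm46* -0.37). The higher list mean of the DKO arrays thus rests on part of its genes. Skeletal muscle genes, with 1 of 8 called (*Myh8*, -1.56 in testes), averaged 1.65 on control ovary 3 and between -2.81 and -1.52 on the other arrays. Without control ovary 3, and likewise without control ovary 1, the same 7 members were called in control testes. Without control ovary 3 *Ptch1* was called in DKO against control ovaries at 1.20 (adjusted p = 0.0227, limma).

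The arrays themselves differed in brightness. Between 58.8% and 70.7% of probes were well above background on an array, and the lowest share was that of control ovary 1, which also had the lowest control ovary level of 6 of the 8 genes. Replicates correlated across the genes tested at 0.976 or higher, lowest among control ovaries. *Stra8* was at 5.28 to 5.62 in DKO ovaries and at 6.16 to 6.71 in control ovaries, and *Smad4* was at 1.96 to 2.19 and 1.99 to 2.35. Where these probes lie relative to the deleted parts is not given in the sources used here, so neither checks the labels fully.

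The genes most like 3 of the members across the 12 arrays were found by Pearson correlation, as a description that mostly carries the difference between the sexes. For *Gli1* they were *Pltp* (0.992), *Myo18a* (0.991), *Fgfrl1* (0.987), *Mier2* (0.987) and *Lss* (0.986). For *Tcf21* they were *Hoxd8* (0.993), *H2bc12* (0.988), *Bok* (0.981), *Col18a1* (0.980) and *Scd2* (0.980). For *Pdgfra* they were *Cenpe* (0.967), *Fam174b* (0.958), *Fbn1* (0.955), *Rab31* (0.953) and *Adcy5* (0.952). Among the members, *Gli1* and *Hhip* correlated at 0.924 over the 12 arrays but at -0.09 over the 9 ovary arrays, and *Ptch1* with *Gli1* at 0.879 and 0.536.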

How the data were processed

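Total RNA of gonads was labelled with Cy3 and hybridized to Whole Mouse Genome arrays of 45018 spots. The authors deposited scanner output of Agilent Feature Extraction (version 11.0.1.1 per the file headers) with the processed intensity of each spot, and a table of the same intensity values, which matched the scanner files to within 0.497% and was used only as an alternative. Control spots and outlier spots were left out, signals were divided by the 75th percentile of their array and taken to log2, spots of a probe were averaged, and so were the probes of a gene. Of 41174 probes, 27311 were kept, each well above background on all 3 arrays of at least 1 group. No member probe was saturated or missing on an array.

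All 12 arrays were fitted in 1 limma model (version 3.58.1, R 4.3.3) with 4 groups, and 5 comparisons were drawn from it. The code was tested on simulated data. Slides were read from the array barcodes. The design text calls the arrays of a group biological triplicates. Replicate numbers were not used as pairs. The number of arrays limits the precision. The members, gene lists and tests were chosen with earlier results of these data known. Pathway genes were named by role (ligands, receptors, Gli factors, *Sufu*) or when called between ovary groups, and up to 4 genes were named from each marker list by size of change. Some genes are not reported here and were taken out of the lists. Of the list genes, *Scube3* and *Insl3* were not found by name, and *Foxf1a* was followed to *Foxf1*. Alternatives were the normalization, background correction, probe choice, dim-probe filter, thresholds, slide and replicate blocks, omission of single arrays, and the methods' t-test.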

Additional observations from a re-analysis of the deposited data

How the results depend on the processing

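No called member changed direction under any alternative that was run. Control testes over control ovaries had 7 calls in the main analysis, 4 after normexp correction and 6 to 8 under the other alternatives. The call of *Ptch1* in DKO against control ovaries, the 1 call there, became 0 calls in the deposited table without scaling, after normexp correction, with the brightest probe alone, with only the groups compared in the model, and by the methods' t-test with unadjusted or Benjamini-Hochberg adjusted p, and 2 calls after quantile normalization. Leaving out 1 array gave 0 to 2 calls (0 without control ovary 1 or DKO ovary 2, and 2 without control ovary 2 or DKO ovary 1). DKO against *Smad4 (Stella)* ovaries went from 1 call to 0 in the deposited table, after normexp, with the slide as a block and by the methods' t-test after adjustment, and DKO against control testes from 7 to 4 in the deposited table and 3 after normexp. The cause of these losses was not tested. Normexp moved the median of all genes by 0.107 in control testes against control ovaries. In DKO against control ovaries, *Smad4 (Stella)* ovaries and control testes it moved that median by 0.256, 0.264 and 0.188. The deposited table, which has no scaling between arrays, moved it by 0.184, -0.245 and 0.116 in the same 3 comparisons. Same-numbered arrays did not deviate together (correlations from -0.184 to 0.154). With the replicate block the member counts were 7, 0, 1, 1 and 7, as without it, and *Ptch1* in DKO against control ovaries had an adjusted p of 0.0319 (limma). Over all genes, calls in the order in which the comparisons stand in the report (6401, 51, 2767, 1595 and 4850) were 2669, 2, 915, 222 and 1566 after normexp and 3726, 14, 999, 525 and 2393 in the deposited table. The 51 calls became 4 with the replicate block, 13 with the slide block, 9 with only the groups compared, 2 without the filter on dim probes, and 819 or 1 by the methods' t-test before or after adjustment. The 1595 became 940 with the slide block and 83 by the adjusted t-test of the methods, and the 2767 became 1101 by the latter.

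Signs turned only for differences that were not called. In *Smad4 (Stella)* against control ovaries these were *Ptch1* (0.046) and *Pdgfa* (0.36) in the deposited table; *Gli1* (-0.10), *Hhip* (-0.058), *Pdgfra* (-0.00073) and *Pdgfb* (-0.19) after normexp; *Pdgfb* (-0.21) with the brightest probe; and *Ptch1* (0.16), *Hhip* (-0.52), *Pdgfra* (-0.44), *Pdgfb* (-0.23), *Nr2f2* (-0.45) and *Tcf21* (-0.48) with the slide block. In DKO against control ovaries these were *Hhip* (0.043), *Nr2f2* (0.089) and *Tcf21* (0.15) in the deposited table and *Hhip* (0.49) after normexp. In DKO against *Smad4 (Stella)* ovaries these were *Pdgfa* (-0.0051) in the deposited table, *Hhip* (0.54) after normexp, *Pdgfra* (-0.060) with the brightest probe, and *Hhip* (0.0097), *Nr2f2* (0.040) and *Tcf21* (0.26) with the slide block. *Pdgfb* in DKO ovaries against control testes turned to -1.17 with the slide block. The slide block values of *Smad4 (Stella)* against control ovaries and of DKO ovaries against control testes join groups that shared no slide. When 1 array was left out, *Smad4 (Stella)* against control ovaries ran from -0.10 to 0.46 for *Hhip*, -0.078 to 0.18 for *Pdgfra*, -0.36 to 0.25 for *Pdgfb* and -0.21 to 0.19 for *Nr2f2*. DKO against control ovaries ran from -0.37 to 0.23 for *Hhip*, -0.0021 to 0.61 for *Pdgfb*, -0.33 to 0.066 for *Nr2f2* and -0.26 to 0.086 for *Tcf21*. *Hhip* ran from -0.60 to 0.10 in DKO against *Smad4 (Stella)* ovaries, and *Pdgfb* from -0.16 to 0.14 in DKO ovaries against control testes and from -0.017 to 0.60 in control testes against control ovaries.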
